A study of Mus musculus with 8 samples.

Results

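The genes described here are 43 components of the machinery that licenses and fires replication origins and copies DNA at the fork, out of 24421 genes listed in a mouse RNA-seq count table. They were chosen by symbol from 9 roles. These are the origin recognition complex, the helicase loader and its inhibitor, origin firing factors, the replicative polymerases with primase, the sliding clamp and its loader, the single-strand binding protein RPA, Okazaki fragment processing, fork protection, and replication-coupled chromatin assembly. The Mcm helicase genes were left out of the set and are used below as neighbours. All 43 genes were found in the table and all 43 passed the filter on low counts.

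Replication starts from origins that are licensed in G1, when the origin recognition complex, Cdc6 and Cdt1 load the inactive Mcm helicase onto DNA. Dbf4-dependent Cdc7 kinase and cyclin-dependent kinases then bring Cdc45 and the GINS complex to the helicase, and polymerases alpha, epsilon and delta copy the strands behind it with the clamp Pcna. Most of these genes are transcribed under E2F factors in cycling cells, and dividing haematopoietic progenitors express them.

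RNA was measured in mouse haematopoietic stem and progenitor cells (HSPCs) taken out of mice after a primary transplantation. Group WT_EV is wild type with an empty vector. Group dKO_EV is a double knockout with the same empty vector, and from the series title its 2 missing genes are those for beta-catenin (Ctnnb1) and Hoxa9. Group dKO_PRMT1 is the double knockout transduced with wild-type PRMT1, an arginine methyltransferase, and group dKO_MUT is the double knockout transduced with a catalytically dead form of it. Each group had 2 libraries. The labels do not say that the 2 replicates came from separate animals, and a p-value here therefore sets a difference against library spread that may be purely technical. They also do not name the deleted exons, the Cre line, the vector backbone, the species of the PRMT1 insert, or the gate that defined the HSPCs. The source and cell type labels read dKO for every library, the wild-type ones included, and 1 dKO_MUT library, replicate 2, carries PRMT2 in its genotype label although by title it belongs to the PRMT1 mutant.

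The libraries held 15531344 to 22329749 counts, and the 43 genes together took 0.333 to 0.358% of them. Prmt1 was at 188 to 194 counts per 1000000 scaled library counts (CPM) in the 4 empty-vector libraries. It was at 976 to 981 CPM in dKO_PRMT1 and 1744 to 1758 CPM in dKO_MUT, so the dead form was the more abundant. Hoxa9 was at 17.2 to 18.2 CPM in WT_EV and 1.87 to 5.79 CPM in the 6 double-knockout libraries. Ctnnb1 was at 444 to 455 CPM in WT_EV and 360 to 391 CPM in the double knockouts, and since the deleted part is not given these values do not check the deletion. Xist was at 121 and 159 CPM in WT_EV and had 0 counts in the double knockouts, while Ddx3y, Eif2s3y, Kdm5d and Uty had 0 counts in WT_EV and were present in every double-knockout library. Genotype and sex therefore cannot be told apart in any comparison with WT_EV. The progenitor markers Kit (137 to 171 CPM), Cd34 (105 to 162 CPM) and Ly6a (154 to 262 CPM) were present in every library. So was the granulocyte precursor gene Mpo (5784 to 9081 CPM). Kit is also among the mast cell genes counted below, and these values do not show which cells held the RNA.

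All 43 genes were transcribed in every library, the smallest count being 248. Their median level per length was 30.1 CPM per kilobase of gene model. That of all 12744 tested genes, which include genes of lower CPM, was 9.78 CPM per kilobase. Pcna, the ring that tethers polymerases to DNA, stood highest at 279 CPM per kilobase, above 98.1% of tested genes. Orc4, a subunit of the origin recognition complex, stood lowest at 5.55 CPM per kilobase, above 37.5% of them.

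Within the origin recognition complex, levels per length ran from 5.55 CPM per kilobase for Orc4 to 25.2 for Orc6, whose ratio to Orc4 was 3.85 to 5.28 over the 8 libraries. Among the licensing factors, Gmnn, which encodes the Cdt1 inhibitor geminin, was highest at 61.7 CPM per kilobase and the loader Cdc6 lowest at 13.0. Cdt1 lay between at 49.7 CPM per kilobase. The Gmnn level was 1.12 to 1.38 times that of Cdt1 in every library, so inhibitor RNA exceeded loader RNA per length in all groups.

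Among the firing factors, Dbf4, the regulatory subunit of Cdc7 kinase, was highest at 36.6 CPM per kilobase and the GINS subunit Gins3 lowest at 6.75. Dbf4 was 4.11 to 6.25 times its own catalytic partner Cdc7, and Gins4 was 4.16 to 5.99 times Gins3. Subunits that act in equal number in a complex thus differed several-fold in RNA per length. In the polymerase group the polymerase epsilon subunit Pole3 was highest at 65.8 CPM per kilobase and the catalytic subunit Pole lowest at 12.0.

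The clamp loader subunit Rfc3 was the lowest of the clamp group at 25.8 CPM per kilobase, and Rfc2 was 2.84 to 3.57 times as high. For RPA, which coats single-stranded DNA, the large subunit Rpa1 was highest at 74.7 CPM per kilobase and the middle subunit Rpa2 lowest at 45.6. In Okazaki processing the flap nuclease Fen1 (77.0 CPM per kilobase) exceeded the nuclease-helicase Dna2 (21.9 CPM per kilobase). Tipin, the partner of Timeless in the fork protection complex, was at 86.3 CPM per kilobase and Wdhd1, which couples polymerase alpha to the helicase, at 16.0. The chromatin assembly factor subunits Chaf1a (35.8 CPM per kilobase) and Chaf1b (30.1 CPM per kilobase) were close to each other.

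**Figure D1:**
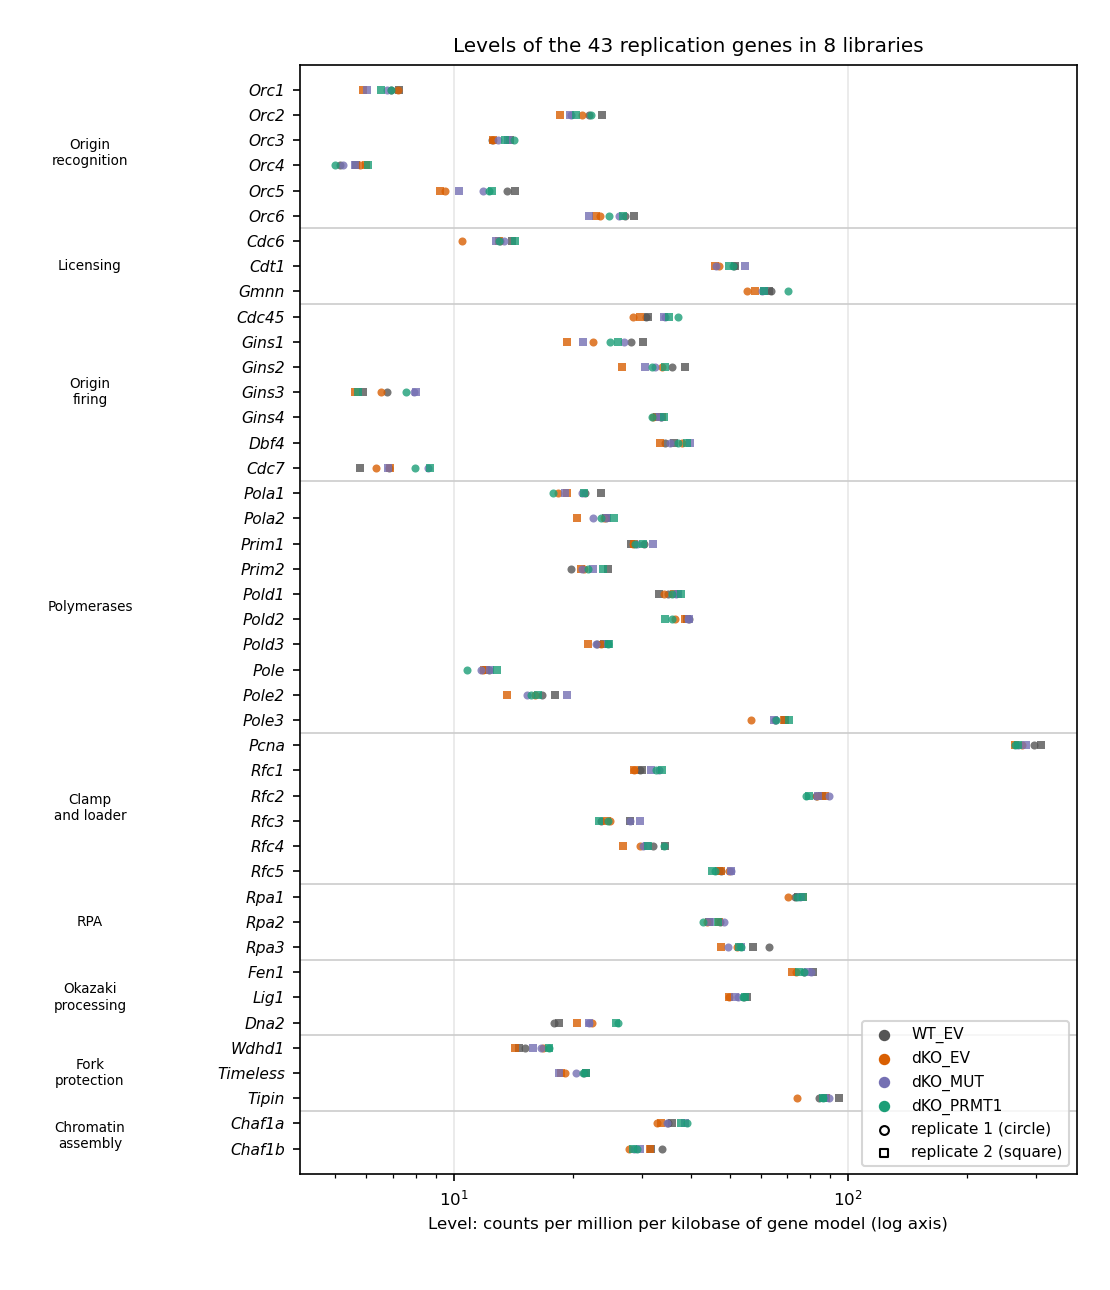
Level of each of the 43 genes in the 8 libraries, in CPM per kilobase of gene model on a log axis, with genes ordered by role, colours for groups and marker shapes for replicates. The levels span from Orc4 at a mean of 5.55 to Pcna at 279, and for every gene the 8 points lie close together next to that span.

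The variation between libraries was small. The highest of the 8 CPM values exceeded the lowest by a median factor of 1.22 over the 43 genes, from 1.07 for Gins4 to 1.56 for Gins1. The same median was 1.26 for the 7479 tested genes within the set's range of mean CPM. No gene of the set reached 2-fold in any of the 6 comparisons between groups.

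Promoter sequences were read to show what these genes share upstream. RefSeq windows on GRCm38.p6, from 250 bases before to 50 bases after each start, were matched by symbol for 35 of the 43 genes, with Gins1, Gins2, Gins4, Gmnn, Pole, Prim2, Rfc2 and Tipin unmatched. An E2F word (TTTCCCGC, TTTCGCGC, TTTGCCGC or TTTGGCGC, either strand) lay in the windows of 11 of 35 genes (31.4%), against 2.6% of the 27025 genes in the promoter table and 4.7% of the 9729 tested genes with a window. The 11 genes were Cdc6, Cdt1, Gins3, Lig1, Orc1, Orc3, Pola1, Pold1, Pold3, Pole2 and Rfc3. The windows were richer in G and C than most, with a median of 63.3% against 52.7% in the whole table and 60.3% for tested genes, and the E2F words are themselves rich in G and C. The CCAAT box (CCAAT, either strand) was in 45.7% of the genes against 42.9% of tested genes, the GC box (GGGCGG, either strand) in 71.4% against 67.7%, and the cell cycle word TTTGAA (either strand) in 17.1% against 14.3%. Matches of different words may overlap and each was counted on its own. A match is a description of letters and not of a bound site.

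The E2F matches of 6 genes from different roles are printed with 10 bases on either side where the window allows, 5′ to 3′ on the gene's strand, with the match in capitals. They show the word in both orientations and at different distances from the start. The start is that of the promoter table, which for Cdc6 lies inside the annotated gene model, as does its match.
Cdc6 (+, chr11:98908003-98908030, 138 bases before the start): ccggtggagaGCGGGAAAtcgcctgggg
Gins3 (+, chr8:95633508-95633535, 41 bases before the start): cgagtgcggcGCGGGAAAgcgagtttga
Orc1 (+, chr4:108579417-108579444, 27 bases before the start): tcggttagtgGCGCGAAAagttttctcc
Orc3 (-, chr4:34614966-34614993, 41 bases before the start): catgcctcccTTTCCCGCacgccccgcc
Pola1 (-, chrX:93632276-93632303, 138 bases before the start): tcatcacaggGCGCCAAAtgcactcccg
Rfc3 (-, chr5:151651209-151651228, 10 bases before the start): cgtcgcacgcTTTCGCGCtc

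The 250 bases upstream of 3 genes that changed between groups (below) are printed because they differ in these words. The window of Pola1 holds an E2F word, a CCAAT box and 2 GC boxes, that of Cdc45 holds 2 CCAAT boxes, 1 GC box and 2 TTTGAA words, and that of Dna2 none of the 4 kinds of word. Capitals mark E2F and CCAAT matches that lie wholly upstream.
Pola1 (-, chrX:93632156-93632405): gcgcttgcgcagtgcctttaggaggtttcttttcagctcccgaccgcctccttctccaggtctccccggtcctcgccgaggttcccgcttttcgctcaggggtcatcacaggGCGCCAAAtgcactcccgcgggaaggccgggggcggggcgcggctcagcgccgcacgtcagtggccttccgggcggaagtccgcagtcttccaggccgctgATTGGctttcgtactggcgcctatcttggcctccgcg
Cdc45 (-, chr16:18811973-18812222): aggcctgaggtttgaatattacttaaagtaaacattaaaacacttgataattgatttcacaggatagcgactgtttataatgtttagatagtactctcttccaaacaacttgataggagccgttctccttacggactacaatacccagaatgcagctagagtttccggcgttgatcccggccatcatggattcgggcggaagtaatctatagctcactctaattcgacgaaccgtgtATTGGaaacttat
Dna2 (+, chr10:62946779-62947028): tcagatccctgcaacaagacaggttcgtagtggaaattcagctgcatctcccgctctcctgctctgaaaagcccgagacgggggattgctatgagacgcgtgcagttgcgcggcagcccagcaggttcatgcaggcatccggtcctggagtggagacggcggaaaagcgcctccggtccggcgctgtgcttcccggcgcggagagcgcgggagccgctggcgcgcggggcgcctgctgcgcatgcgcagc
An E2F word was in 2 of the 10 matched genes that passed the test in at least 1 comparison (Lig1 and Pola1) and in 9 of the 25 that passed it in none. The windows of Orc5 and Pcna held no E2F word, each held GC boxes, and that of Pcna held a CCAAT box.

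Differences between groups were tested over all 12744 genes that passed the filter, with a call at a Benjamini-Hochberg adjusted p of 0.05 from the edgeR quasi-likelihood test. Every difference below is a log2 fold change between group means with its standard error (SE). In 6 comparisons, 11 of the 43 genes were called at least once and 32 in none. In bulk RNA, fewer cells of a type and less RNA per cell cannot be told apart.

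The comparison of dKO_EV with WT_EV asks what loss of beta-catenin and Hoxa9 did to these genes. Orc5, Gins1, Pola1, Pcna and Lig1 fell and Dna2 rose. The 5 genes that fell are 11.6% of the set against 7.00% of all tested genes, and the 1 that rose is 2.33% against 8.44%, which makes 14.0% called against 15.4%. Most differences were small and below 0: 35 of 43 (81.4%), against 50.1% of all tested genes, with a median of -0.09 against 0.00 for all genes. Before adjustment, 14 genes (32.6%) had a lower and 1 (2.33%) a higher value at p under 0.05, against 12.8% and 14.0% of all tested genes. In 23 of 43 genes both dKO_EV libraries lay below both WT_EV libraries, and in 3 above them, where 26.0% and 26.8% of all tested genes did so. The count of genes that fell rested on single libraries. It was 1 (Orc5) without WT_EV replicate 2, and over all 8 ways to leave out 1 library it ran from 1 to 5. No gene was called higher once dKO_EV replicate 1 or either WT_EV library was left out, a count of 0 in each case.

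In dKO_PRMT1 against dKO_EV, which asks what active PRMT1 did in the double knockout, 5 genes rose and 0 fell: Orc5, Cdc45, Rfc1, Dna2 and Chaf1a. They are 11.6% of the set against 5.96% of all tested genes, while 8.67% of all genes fell and 14.6% were called in either direction. In this comparison 34 of 43 differences (79.1%) were above 0, against 50.1% of all tested genes, with a median of 0.11 against 0.00. At an unadjusted p under 0.05, 13 genes (30.2%) were higher and 0 lower, against 12.2% and 13.9% of all tested genes, and DESeq2 also called 0 lower. Both dKO_PRMT1 libraries lay above both dKO_EV libraries in 21 genes and below them in 3, beside 25.8% and 26.4% of all tested genes. Leaving out dKO_PRMT1 replicate 1 left 2 genes called higher, leaving out dKO_PRMT1 replicate 2 left 3, and the range over all 8 libraries left out was 2 to 6.

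In dKO_MUT against dKO_EV, the comparison for the dead enzyme, Cdc45 and Rfc1 rose and 0 genes fell. They are 4.65% of the set against 4.24% of all tested genes, a share near the background, while 7.08% of all genes fell and 11.3% were called in either direction. The differences were above 0 for 39 of 43 genes (90.7%), against 50.6% of all tested genes, with a median of 0.07 against 0.00. At an unadjusted p under 0.05, 5 genes (11.6%) were higher and 0 lower, against 10.6% and 13.0% of all tested genes, so the higher count was near the background. DESeq2 called 0 lower too. Both dKO_MUT libraries lay above both dKO_EV libraries in 15 genes and below them in 1, beside 23.9% and 24.3% of all tested genes. The count called higher was 0 without dKO_EV replicate 1 or dKO_MUT replicate 1, 1 without dKO_MUT replicate 2, and between 0 and 3 as each library was left out in turn. These first 3 comparisons all use the dKO_EV libraries and are not independent of each other.

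The active and the dead enzyme differed in 1 gene of the set, Dna2, which was higher in dKO_PRMT1. That is 2.33% of the set against 1.43% of all tested genes called higher, and 0 genes were called lower, against 1.68% of all tested genes, of which 3.11% were called in either direction. At an unadjusted p under 0.05, 2 genes (4.65%) were higher and 4 (9.30%) lower, against 6.47% and 6.78% of all tested genes, and DESeq2 called 0 lower. The median difference was 0.05, with 26 of 43 (60.5%) above 0, against 49.7% of all tested genes. The 95% interval of the difference stayed within 1.5-fold for all 43 genes. In 10 genes both dKO_PRMT1 libraries lay above both dKO_MUT libraries and in 7 below them, beside 22.3% and 21.8% of all genes. The count was 0 without any 1 of the libraries of WT_EV, dKO_MUT or dKO_PRMT1. A missing call here does not show that active and dead PRMT1 act alike on these genes.

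Against WT_EV, dKO_PRMT1 was higher for Dna2, Cdc45, Cdc7, Rfc1 and Wdhd1 (11.6% of the set, against 11.0% of all tested genes) and lower for Pcna and Pola1 (4.65%, against 12.2%). The median difference was -0.01, with 19 of 43 above 0. The dKO_MUT libraries were higher than WT_EV for Dna2 (2.33%, against 9.41%) and lower for Pcna (2.33%, against 9.96%), with a median of -0.01 and 20 of 43 above 0. These shares were near or below those of all tested genes. Both dKO_PRMT1 libraries lay above both WT_EV libraries in 9 genes and below them in 15, beside 31.2% and 31.4% of all tested genes. For dKO_MUT these counts were 9 and 14, beside 28.4% and 29.5%. In all, 7 of 43 genes (16.3%) were called for dKO_PRMT1, against 23.2% of all tested genes, and 2 (4.65%) for dKO_MUT, against 19.4%. The number of genes higher in dKO_PRMT1 was 1 without WT_EV replicate 2 or dKO_PRMT1 replicate 1 and 2 without either of their partners, and the number lower was 1 without WT_EV replicate 2, dKO_PRMT1 replicate 1 or either dKO_EV library. For dKO_MUT the number higher was 0 without WT_EV replicate 1 and 2 without dKO_MUT replicate 2. The number lower was 0 without WT_EV replicate 2, 2 without dKO_MUT replicate 1 and 3 without either dKO_EV library.

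**Figure D2:**
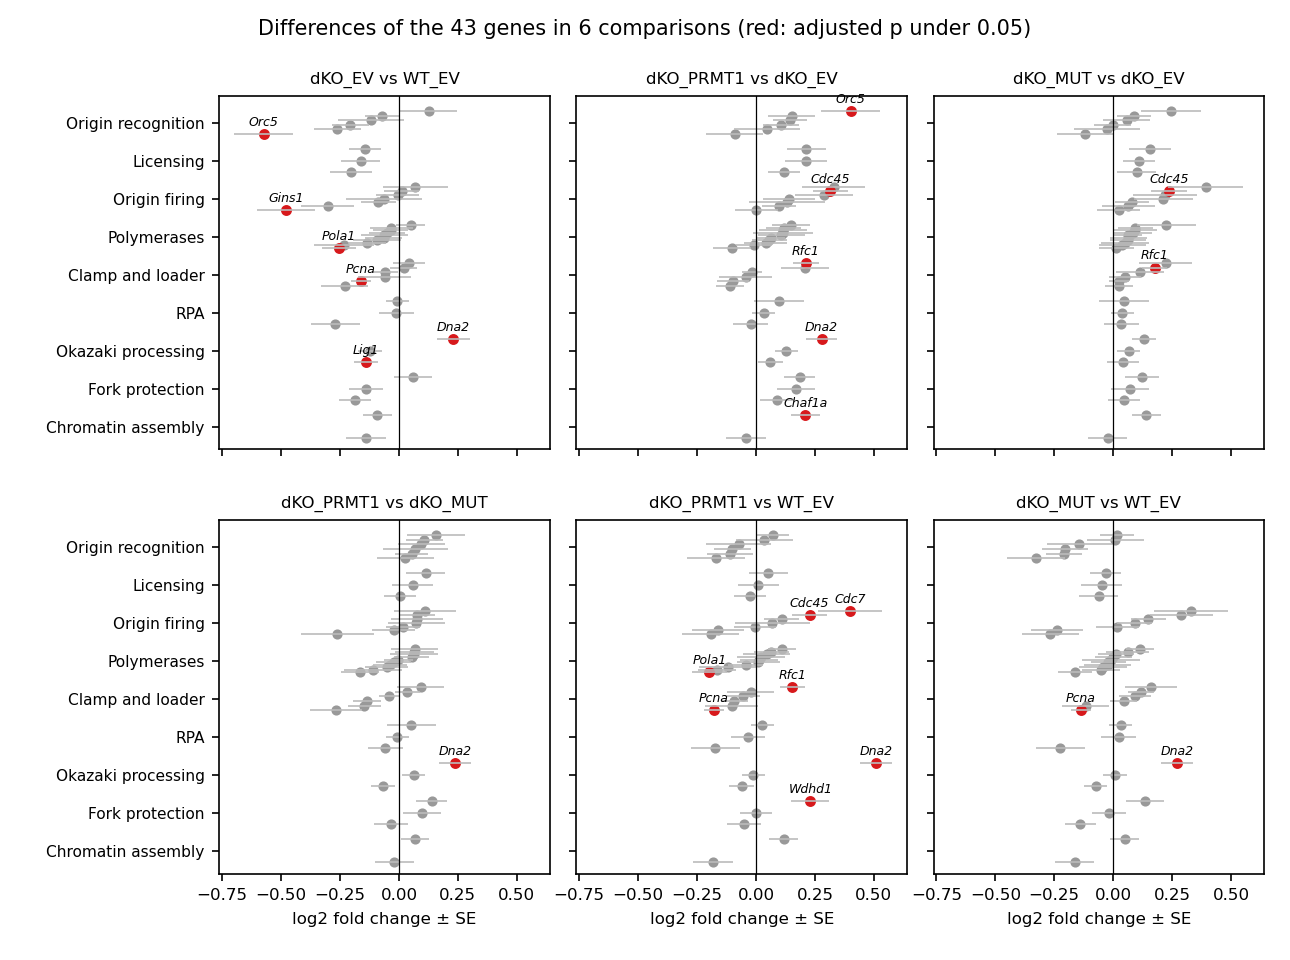
Log2 fold change ± SE of the 43 genes by role in the 6 comparisons, with genes past an adjusted p of 0.05 in red and named. In dKO_EV vs WT_EV most points lie left of 0 (35 of 43), in dKO_PRMT1 vs dKO_EV and dKO_MUT vs dKO_EV most lie right of it (34 and 39 of 43), and the extremes are -0.57 for Orc5 in dKO_EV vs WT_EV and 0.51 for Dna2 in dKO_PRMT1 vs WT_EV.

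Seen gene by gene over the 4 groups, dKO_EV had the lowest group mean for 27 of 43 genes and the highest for 1. WT_EV had the highest mean for 18 genes, dKO_PRMT1 for 14 and dKO_MUT for 10. Summed over the set, WT_EV held 3513 and 3608 CPM, dKO_EV held 3339 and 3334, dKO_MUT held 3512 and 3532, and dKO_PRMT1 held 3514 and 3577. The 2 dKO_EV libraries were thus the lowest of the 8, and the ranges of the other 3 groups overlapped. Within groups, replicates differed by a median of 0.07 to 0.08 log2 per gene and by up to 0.31 to 0.40 for the most variable gene of each group.

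**Figure D3:**
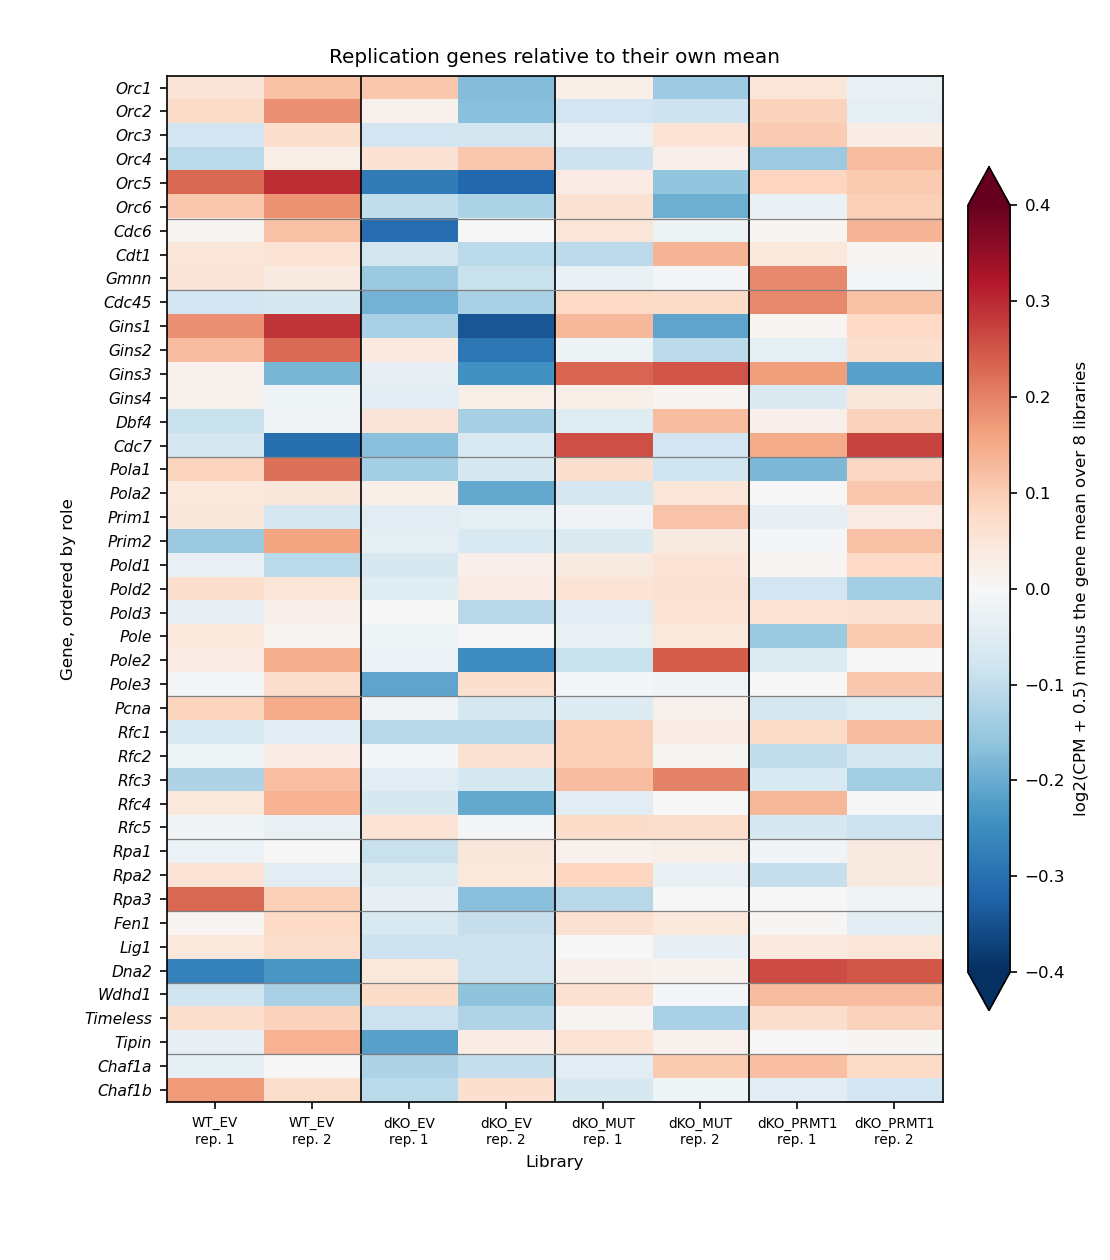
Each gene's log2(CPM + 0.5) minus its mean over the 8 libraries, with libraries in columns by group and genes in rows by role; the scale runs from -0.4 to 0.4. The dKO_EV columns are mostly blue, Orc5 and Gins1 go from red in WT_EV to blue in dKO_EV, and Dna2 is blue in WT_EV and red in dKO_PRMT1.

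Among the 6 origin recognition genes, Orc5 was the 1 called with all 8 libraries in the fit. Orc5 (chr5:22486489-22550331, minus strand, GRCm38) encodes an ATP-binding subunit of the complex that marks origins. Its values were 28.0 and 29.4 CPM in WT_EV, 19.5 and 19.0 in dKO_EV, 24.4 and 21.3 in dKO_MUT and 25.3 and 25.7 in dKO_PRMT1. The lowest 2 of the 8 libraries were those of dKO_EV and the highest 2 those of WT_EV, with dKO_MUT and dKO_PRMT1 between them. The difference of dKO_EV from WT_EV was -0.57 ± 0.13 (SE, adjusted p = 0.00105), and it stayed past the threshold in all 12 alternative fits, between -0.61 and -0.54. With active PRMT1, Orc5 rose over dKO_EV by 0.40 ± 0.13 (SE, adjusted p = 0.0263). That call was lost without dKO_EV replicate 2, at 0.38 (adjusted p = 0.0851), without dKO_PRMT1 replicate 1, at 0.41 (adjusted p = 0.11), and without dKO_PRMT1 replicate 2, at 0.39 (adjusted p = 0.142). With the dead form the difference from dKO_EV was 0.25 ± 0.13 (SE, adjusted p = 0.238), and dKO_PRMT1 against dKO_MUT was 0.16 ± 0.12 (SE, adjusted p = 0.662), so a difference between the forms was not shown. Orc5 was not called against WT_EV in dKO_PRMT1, at -0.17 ± 0.12 (SE, adjusted p = 0.362), or in dKO_MUT, at -0.33 ± 0.12 (SE, adjusted p = 0.0587), where it was called once either dKO_EV library was left out.

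The other 5 subunits passed the test in none of the 6 comparisons of all 8 libraries. Orc1, the largest subunit and an ATPase, was at 20.8 and 21.8 CPM in WT_EV, 21.7 and 17.7 in dKO_EV, 20.4 and 18.1 in dKO_MUT and 20.8 and 19.7 in dKO_PRMT1. The dKO_EV libraries overlapped every other group, while both dKO_MUT and both dKO_PRMT1 libraries lay below both WT_EV libraries, and 1 dKO_PRMT1 library was level with the lower of them to the first decimal. Its difference between dKO_EV and WT_EV was -0.12 ± 0.14 (SE, adjusted p = 0.655). Orc2 and Orc6 had lower values in both dKO_EV libraries than in both WT_EV libraries, with differences of -0.21 ± 0.08 (SE, adjusted p = 0.069) and -0.26 ± 0.10 (SE, adjusted p = 0.0716). Orc2 was called there without dKO_EV replicate 1 or with no filter on low counts, and it was called in dKO_MUT against WT_EV with no filter or without either dKO_EV library. Orc6 was called in dKO_MUT against WT_EV without dKO_MUT replicate 1. Orc3 and Orc4 overlap exons of genes on the other strand (Akirin2 and Acvr2a) by 2.03% and 10.27% of their merged exon length, and the strand setting of the counting is not given in the sources used here.

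No licensing factor was called in any comparison of all 8 libraries, and all 3 were lowest on average in dKO_EV. Without dKO_EV replicate 2, Cdc6 was called in all 3 comparisons with dKO_EV, and without dKO_PRMT1 replicate 2, Gmnn was called in dKO_PRMT1 against dKO_EV. Cdt1, the loader that is degraded once S phase begins, was at 112 and 113 CPM in WT_EV, 103 and 101 in dKO_EV, 101 and 119.6 in dKO_MUT and 112 and 109 in dKO_PRMT1. Cdc6 was at 61.5 and 66.1 CPM in WT_EV, 49.2 and 61.0 in dKO_EV, 63.1 and 60.1 in dKO_MUT and 61.3 and 67.0 in dKO_PRMT1, with dKO_EV replicate 1 the lowest of the 8 libraries and replicate 2 just under WT_EV. Gmnn was at 62.3 and 61.6 CPM in WT_EV, 54.2 and 56.5 in dKO_EV, 59.1 and 59.8 in dKO_MUT and 68.8 and 59.8 in dKO_PRMT1. For all 3 genes both dKO_EV libraries lay below both WT_EV libraries. The differences of dKO_EV from WT_EV were -0.14 ± 0.07 (SE, adjusted p = 0.165) for Cdt1, -0.20 ± 0.09 (SE, adjusted p = 0.125) for Cdc6 and -0.16 ± 0.08 (SE, adjusted p = 0.208) for Gmnn. For dKO_PRMT1 against dKO_EV they were 0.12 ± 0.07 (SE, adjusted p = 0.285), 0.21 ± 0.09 (SE, adjusted p = 0.111) and 0.21 ± 0.08 (SE, adjusted p = 0.0801) in the same order.

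Among the 7 origin firing genes, Gins1, Cdc45 and Cdc7 were called at least once. Gins1 (chr2:150909594-150931280, plus strand), a subunit of the GINS complex that holds polymerase epsilon at the helicase, was at 32.5 and 35.0 CPM in WT_EV, 26.1 and 22.5 in dKO_EV, 31.3 and 24.6 in dKO_MUT and 28.8 and 30.3 in dKO_PRMT1. It had the widest spread of the set, and dKO_MUT replicate 2 lay within the dKO_EV range while replicate 1 lay just under WT_EV. Gins1 fell in dKO_EV against WT_EV, at -0.48 ± 0.12 (SE, adjusted p = 0.00528). Without WT_EV replicate 2 the value was -0.43 (adjusted p = 0.0793), and without dKO_EV replicate 2 it was -0.38 (adjusted p = 0.0741). With active PRMT1 it was 0.29 ± 0.12 (SE, adjusted p = 0.125) against dKO_EV. Gins1 was also called in dKO_MUT against WT_EV without dKO_MUT replicate 1. Gins2, Gins3 and Gins4 were not called, except Gins2 in dKO_EV against WT_EV without dKO_EV replicate 1 or with no filter on low counts. Gins3 was the least abundant GINS subunit at 16.4 and 14.2 CPM in WT_EV, 15.8 and 13.6 in dKO_EV, 19.1 and 19.3 in dKO_MUT and 18.2 and 13.8 in dKO_PRMT1, and its dKO_PRMT1 replicates lay far apart. Gins4 was the steadiest gene of the set at 45.6 and 44.5 CPM in WT_EV, 43.7 and 46.0 in dKO_EV, 45.8 and 45.5 in dKO_MUT and 43.3 and 46.6 in dKO_PRMT1.

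Cdc45 (chr16:18780447-18811972, minus strand), which joins Mcm and GINS in the active helicase, showed another order of groups. Its values were 65.9 and 66.5 CPM in WT_EV, 61.0 and 63.5 in dKO_EV, 73.5 and 73.2 in dKO_MUT and 79.5 and 75.4 in dKO_PRMT1. All 4 libraries with either form of PRMT1 lay above all 4 empty-vector libraries, and between the latter the genotype difference was not called, at -0.09 ± 0.08 (SE, adjusted p = 0.504). Against dKO_EV it rose by 0.31 ± 0.07 (SE, adjusted p = 0.00242) with active PRMT1 and by 0.24 ± 0.07 (SE, adjusted p = 0.0324) with the dead form, and the difference between the 2 forms was 0.08 ± 0.07 (SE, adjusted p = 0.73). The first of these calls was lost without dKO_PRMT1 replicate 1, at 0.28 (adjusted p = 0.0639). The second was lost without dKO_EV replicate 1, at 0.21 (adjusted p = 0.105), without dKO_MUT replicate 1, at 0.23 (adjusted p = 0.123), and without dKO_MUT replicate 2, at 0.24 (adjusted p = 0.11). Against WT_EV, dKO_PRMT1 was higher by 0.23 ± 0.07 (SE, adjusted p = 0.0217), a call lost without either WT_EV library, at 0.22 (adjusted p = 0.137) and 0.23 (adjusted p = 0.113), and without dKO_PRMT1 replicate 1, at 0.19 (adjusted p = 0.202).

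Cdc7 (chr5:106964322-106984439, plus strand), the kinase that phosphorylates the loaded helicase, was at 22.1 and 18.7 CPM in WT_EV, 20.6 and 22.3 in dKO_EV, 27.9 and 22.0 in dKO_MUT and 25.8 and 28.1 in dKO_PRMT1. The dKO_PRMT1 libraries lay above those of both empty-vector groups. It was called in dKO_PRMT1 against WT_EV, at 0.40 ± 0.13 (SE, adjusted p = 0.0269), and in dKO_MUT against WT_EV without dKO_MUT replicate 2. The call was lost without WT_EV replicate 2, at 0.28 (adjusted p = 0.32), and without either dKO_PRMT1 library, at 0.46 (adjusted p = 0.0606) and 0.34 (adjusted p = 0.204). Its partner Dbf4, the highest in level of the firing genes, was called in none of the 6 comparisons, and neither was Gins3, whose dKO_MUT value of 0.39 ± 0.16 (SE, adjusted p = 0.113) over dKO_EV had the widest interval of the firing genes in that comparison.

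**Figure D4:**
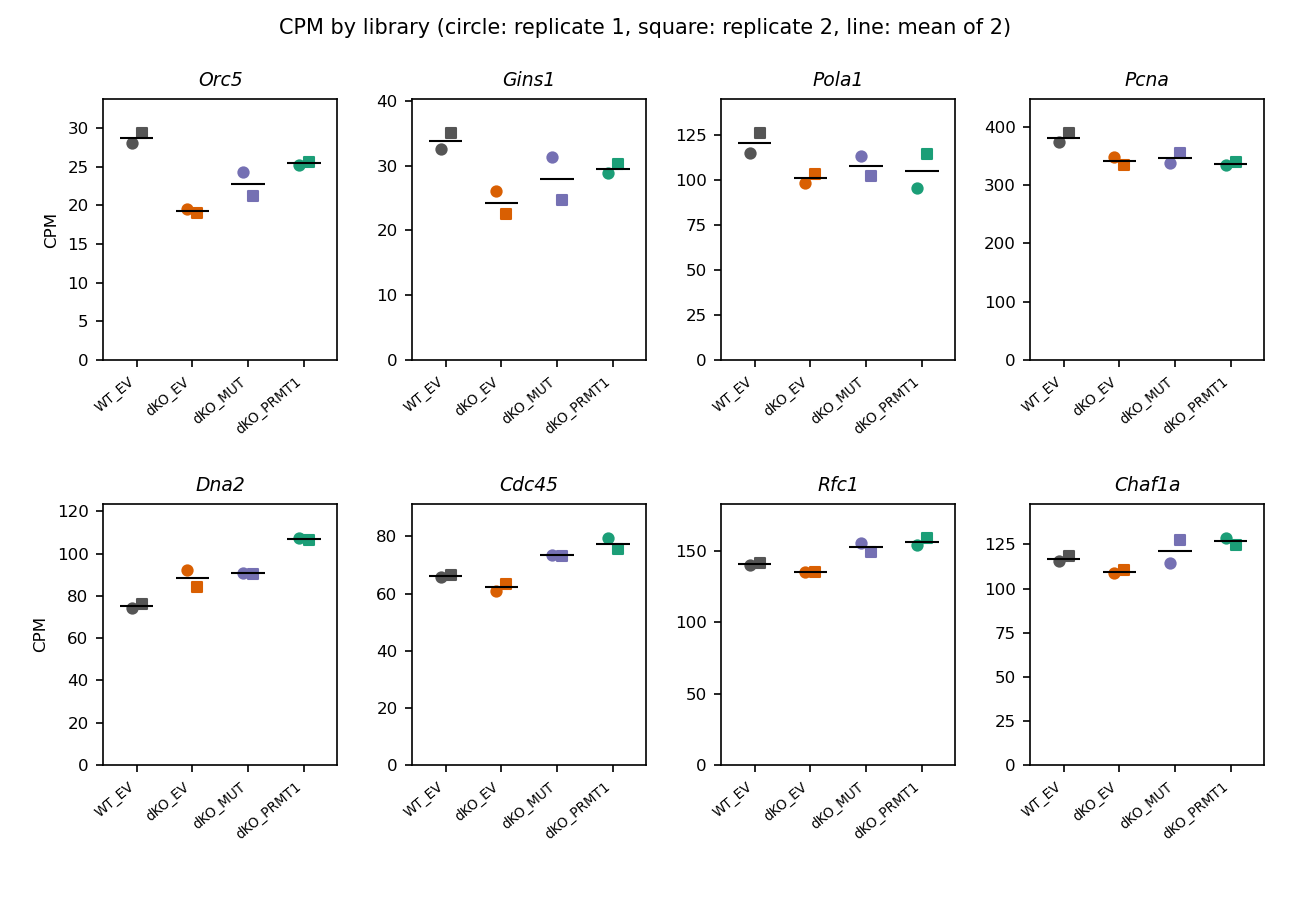
CPM of 8 of the 11 genes called in at least 1 comparison, each with its own axis from 0; circles and squares are replicates 1 and 2 and the line is the mean of the 2. Orc5 drops from WT_EV to dKO_EV and lies between them in the other 2 groups, Cdc45 is higher in both groups with a PRMT1 vector, and Dna2 climbs from WT_EV to dKO_PRMT1.

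Of the 10 polymerase and primase genes 1 was called with all 8 libraries, Pola1 (chrX:93304766-93632155, minus strand), the catalytic subunit of polymerase alpha that extends RNA primers. Its values were 115 and 126 CPM in WT_EV, 98.4 and 103 in dKO_EV, 113 and 102 in dKO_MUT and 95.4 and 115 in dKO_PRMT1. The 3 double-knockout groups overlapped, with WT_EV replicate 2 the highest and dKO_PRMT1 replicate 1 the lowest. It fell in dKO_EV against WT_EV, at -0.25 ± 0.07 (SE, adjusted p = 0.0134), and the call was lost without WT_EV replicate 2, at -0.19 (adjusted p = 0.212), and without dKO_EV replicate 1, at -0.22 (adjusted p = 0.115). It was lower in dKO_PRMT1 than in WT_EV, at -0.20 ± 0.07 (SE, adjusted p = 0.0441), and DESeq2 did not call it (adjusted p = 0.103). That value was -0.07 (adjusted p = 0.663) without dKO_PRMT1 replicate 1 and -0.13 (adjusted p = 0.381) without WT_EV replicate 2. Without dKO_EV replicate 1 or 2 it was -0.20 (adjusted p = 0.0526) and -0.20 (adjusted p = 0.0509). Pola1 lies on chromosome X, where the sexes differ as well. Of 421 X-linked tested genes, 24 were higher and 41 lower in dKO_EV than in WT_EV, with a median of -0.03 against 0.00 for autosomal genes. Their part in the Pola1 result was not tested. Pold2, the accessory subunit of polymerase delta, shares 4.29% of its exon bases with Aebp1 on the other strand.

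Pcna (chr2:132249286-132253180, minus strand) was lower in all 3 double-knockout groups than in WT_EV, with or without a PRMT1 vector. Its values were 373 and 389 CPM in WT_EV, 347 and 334 in dKO_EV, 338 and 355 in dKO_MUT and 334 and 339 in dKO_PRMT1. All 6 double-knockout libraries lay below both wild-type libraries. The difference from WT_EV was -0.16 ± 0.04 (SE, adjusted p = 0.00587) in dKO_EV, -0.14 ± 0.04 (SE, adjusted p = 0.0179) in dKO_MUT and -0.18 ± 0.04 (SE, adjusted p = 0.00133) in dKO_PRMT1. The value for dKO_PRMT1 held in all 12 alternative fits, from -0.21 to -0.15. The other 2 calls were lost without WT_EV replicate 2, at -0.14 (adjusted p = 0.114) for dKO_EV and -0.11 (adjusted p = 0.238) for dKO_MUT. The first was also lost without dKO_EV replicate 2, at -0.14 (adjusted p = 0.0557), and the second without dKO_MUT replicate 1, at -0.10 (adjusted p = 0.221). Against dKO_EV, Pcna was at -0.02 ± 0.04 (SE, adjusted p = 0.856) with active PRMT1, with a 95% interval of -0.10 to 0.07, and at 0.03 ± 0.04 (SE, adjusted p = 0.763) with the dead form, with an interval of -0.06 to 0.11.

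Of the 5 clamp loader genes Rfc1 was called (chr5:65261852-65335639, minus strand). It encodes the large subunit that opens the Pcna ring. Its values were 139.9 and 142 CPM in WT_EV, 135 and 135 in dKO_EV, 156 and 149 in dKO_MUT and 154 and 159 in dKO_PRMT1. As for Cdc45, all 4 libraries with either PRMT1 vector lay above all 4 empty-vector libraries. Rfc1 rose over dKO_EV by 0.21 ± 0.05 (SE, adjusted p = 0.00556) with active PRMT1 and by 0.18 ± 0.05 (SE, adjusted p = 0.0291) with the dead form. The first call was lost without dKO_PRMT1 replicate 2, at 0.19 (adjusted p = 0.098). The second was lost without either dKO_EV library, at 0.18 (adjusted p = 0.0631) and 0.18 (adjusted p = 0.0645), and without dKO_MUT replicate 1, at 0.14 (adjusted p = 0.219). It was higher in dKO_PRMT1 than in WT_EV by 0.15 ± 0.05 (SE, adjusted p = 0.0356). That call was lost without any 1 of the 4 libraries compared, at 0.14 (adjusted p = 0.191) and 0.16 (adjusted p = 0.141) without those of WT_EV and 0.18 (adjusted p = 0.0803) and 0.13 (adjusted p = 0.238) without those of dKO_PRMT1. The ratio of Pcna to Rfc1 per length was 9.24 to 10.3 in the empty-vector libraries and 7.98 to 8.90 in those with a PRMT1 vector.

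Rfc3, the least abundant loader subunit, was at 28.6 and 34.0 CPM in WT_EV, 30.3 and 29.7 in dKO_EV, 34.1 and 35.9 in dKO_MUT and 29.9 and 28.3 in dKO_PRMT1 and was not called. Its dKO_MUT libraries were both above those of dKO_PRMT1, at -0.27 ± 0.11 (SE, adjusted p = 0.247) for dKO_PRMT1 against dKO_MUT. Rfc4 shares 13.16% of its exon bases with Eif4a2 on the other strand. None of the 3 RPA genes was called. Rpa1 was at 228 and 232 CPM in WT_EV, 218 and 239 in dKO_EV, 235 and 236 in dKO_MUT and 230.1 and 238 in dKO_PRMT1. Both dKO_MUT libraries lay above both WT_EV libraries, at 0.03 ± 0.05 (SE, adjusted p = 0.735), and all other pairs of groups overlapped. The small subunit Rpa3 was lower in both dKO_EV libraries than in both WT_EV libraries, at -0.27 ± 0.11 (SE, adjusted p = 0.08).

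The 3 Okazaki fragment genes held a called fall and the largest called rise. Dna2 (chr10:62947029-62974188, plus strand) encodes a nuclease and helicase that trims long flaps and acts at stalled forks. Its values were 74.1 and 76.2 CPM in WT_EV, 92.3 and 84.4 in dKO_EV, 90.8 and 90.5 in dKO_MUT and 107 and 106 in dKO_PRMT1. The 2 WT_EV libraries were the lowest of the 8 and the 2 dKO_PRMT1 libraries the highest, while dKO_EV and dKO_MUT overlapped between them. Dna2 was higher than in WT_EV by 0.23 ± 0.07 (SE, adjusted p = 0.0169) in dKO_EV, by 0.27 ± 0.07 (SE, adjusted p = 0.00303) in dKO_MUT and by 0.51 ± 0.07 (SE, adjusted p = 2.14e-07) in dKO_PRMT1. The last of these stayed past the threshold in all 12 alternative fits, from 0.49 to 0.53. The first was lost without WT_EV replicate 1, at 0.21 (adjusted p = 0.149), WT_EV replicate 2, at 0.25 (adjusted p = 0.0806), or dKO_EV replicate 1, at 0.17 (adjusted p = 0.137). The dKO_MUT value was 0.25 (adjusted p = 0.0524) without WT_EV replicate 1.

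With active PRMT1, Dna2 rose over dKO_EV by 0.28 ± 0.07 (SE, adjusted p = 0.00306), and over dKO_MUT by 0.24 ± 0.07 (SE, adjusted p = 0.0387). The dead form differed from dKO_EV by 0.04 ± 0.07 (SE, adjusted p = 0.779). Without dKO_EV replicate 2 the value over dKO_EV was 0.21 (adjusted p = 0.0586). The value over dKO_MUT was called in 6 of 12 alternative fits and lost without dKO_MUT replicate 1, at 0.24 (adjusted p = 0.169), dKO_MUT replicate 2, at 0.24 (adjusted p = 0.185), dKO_PRMT1 replicate 1, at 0.23 (adjusted p = 0.292), or dKO_PRMT1 replicate 2, at 0.24 (adjusted p = 0.213). It was also lost without WT_EV replicate 1, at 0.24 (adjusted p = 0.0547), or WT_EV replicate 2, at 0.24 (adjusted p = 0.0608), which only adds to the estimate of the spread. Prmt1 RNA was higher in dKO_MUT than in dKO_PRMT1, and the part of that difference in dose was not tested.

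Lig1 (chr7:13277313-13311427, plus strand), the ligase that seals Okazaki fragments, was at 191 and 195 CPM in WT_EV, 175 and 175 in dKO_EV, 185 and 181 in dKO_MUT and 191 and 192 in dKO_PRMT1. Both dKO_EV libraries were the lowest of the 8. It fell in dKO_EV against WT_EV, at -0.14 ± 0.05 (SE, adjusted p = 0.0488), the call nearest to the threshold, which was kept in 1 of the 12 alternative fits and not by DESeq2 (adjusted p = 0.0526). The value was -0.15 (adjusted p = 0.145) without WT_EV replicate 1 and -0.13 (adjusted p = 0.252) without WT_EV replicate 2. Without dKO_EV replicate 1 it was -0.14 (adjusted p = 0.0923), and without dKO_EV replicate 2 it was -0.14 (adjusted p = 0.0923). Leaving out a dKO_MUT library gave -0.14 (adjusted p = 0.0523) and -0.14 (adjusted p = 0.0519) for replicates 1 and 2, and leaving out a dKO_PRMT1 library gave -0.14 (adjusted p = 0.0698) and -0.14 (adjusted p = 0.0704). Lig1 also shares 3.3% of its exon bases with 6330408A02Rik on the other strand. Fen1 was not called.

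In the fork protection group Wdhd1 (chr14:47240944-47276857, minus strand) was called once with all 8 libraries in the fit. Its values were 63.1 and 61.0 CPM in WT_EV, 70.2 and 59.6 in dKO_EV, 69.6 and 66.4 in dKO_MUT and 72.8 and 72.8 in dKO_PRMT1, with both dKO_PRMT1 libraries the highest of the 8. It was higher in dKO_PRMT1 than in WT_EV by 0.23 ± 0.08 (SE, adjusted p = 0.0334), and DESeq2 did not call it (adjusted p = 0.0553). The call was lost without WT_EV replicate 1, at 0.26 (adjusted p = 0.0941), WT_EV replicate 2, at 0.20 (adjusted p = 0.213), dKO_PRMT1 replicate 1, at 0.23 (adjusted p = 0.142), or dKO_PRMT1 replicate 2, at 0.23 (adjusted p = 0.139). Timeless, which travels with the fork and slows it when the helicase and polymerase part, was lower in dKO_EV than in WT_EV by a value that missed the threshold, at -0.19 ± 0.07 (SE, adjusted p = 0.0602). With active PRMT1 it was 0.18 ± 0.07 (SE, adjusted p = 0.0634) over dKO_EV.

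Chaf1a (chr17:56040416-56068026, plus strand) encodes the large subunit of the factor that deposits new histones behind the fork. Its values were 115 and 118 CPM in WT_EV, 109 and 111 in dKO_EV, 115 and 127 in dKO_MUT and 129 and 125 in dKO_PRMT1. The dKO_EV libraries were the lowest 2 of the 8, and dKO_PRMT1 and dKO_MUT overlapped. Chaf1a rose over dKO_EV by 0.21 ± 0.06 (SE, adjusted p = 0.0166) with active PRMT1. The call was lost without dKO_EV replicate 1, at 0.20 (adjusted p = 0.0568), and without either dKO_PRMT1 library, at 0.19 (adjusted p = 0.155) and 0.23 (adjusted p = 0.0645). The middle subunit Chaf1b was not called in any comparison.

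Neighbouring gene lists were counted in the same fit. Of all tested genes, 8.44% rose and 7.00% fell in dKO_EV against WT_EV. Against dKO_EV, 5.96% rose and 8.67% fell with active PRMT1, and 4.24% rose and 7.08% fell with the dead form. Between the 2 forms, 1.43% were higher and 1.68% lower with the active one. The Mcm list held 8 genes, Mcm2 to Mcm7 with Mcm10 and Mcmbp. Of these, 5 (62.5%) fell and 0 rose in dKO_EV against WT_EV. Among those that fell were Mcm10 (-0.32 ± 0.07), Mcm3 (-0.23 ± 0.04), Mcm7 (-0.19 ± 0.04) and Mcm6 (-0.15 ± 0.04). Against dKO_EV, 2 of 8 (25%) rose with active PRMT1 (Mcm5 at 0.16 ± 0.04 and Mcm7 at 0.14 ± 0.04). With the dead form 1 of 8 (12.5%) rose (Mcm7 at 0.16 ± 0.04), and 0 of 8 were called between the 2 forms. Of 33 other replication factors, 2 (6.06%) fell in dKO_EV, a share near the background. They were 2810417H13Rik, which encodes a Pcna-binding protein (-0.27 ± 0.05), and the histone acetyltransferase gene Hat1 (-0.18 ± 0.06). With active PRMT1, 6 of the 33 (18.2%) rose over dKO_EV, among them Topbp1, which helps origins fire (0.27 ± 0.05), and 2810417H13Rik (0.24 ± 0.05). With the dead form 2 rose (6.06%, against 4.24% of all tested genes), a share near the background. Topbp1 was also the 1 gene of this list (3.03%) that was higher in dKO_PRMT1 than in dKO_MUT (0.18 ± 0.05).

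A list of 15 genes held E2F factors, their partners and pocket proteins, with Lin54 and Mybl2. In dKO_EV against WT_EV, E2f2 rose (0.27 ± 0.06) and the repressor E2f8 fell (-0.15 ± 0.05). Each was 6.67% of the list, near or below the share of all tested genes. With active PRMT1, 4 (26.7%) rose over dKO_EV, namely E2f8 (0.29 ± 0.05), E2f2 (0.26 ± 0.06), Tfdp1 (0.16 ± 0.04) and Mybl2 (0.21 ± 0.06). With the dead form 2 (13.3%) rose, E2f8 (0.25 ± 0.05) and E2f2 (0.20 ± 0.06). Of 30 mitosis genes, 4 (13.3%) fell in dKO_EV and 0 rose, with the proliferation marker Mki67 at -0.13 ± 0.05. Of the same 30, 13 (43.3%) rose with active PRMT1 (Mki67 at 0.37 ± 0.05) and 4 (13.3%) with the dead form (Mki67 at 0.31 ± 0.05). Higher with the active than with the dead form were 3 (10%). The summed mitosis level was 4596 to 4628 CPM in WT_EV, 4338 to 4433 CPM in dKO_EV, 4661 to 4763 CPM in dKO_MUT and 4936 to 4993 CPM in dKO_PRMT1. The replication set was thus lowest where the mitosis list was lowest, and its part in the result was not tested.

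Markers of differentiated cells moved with the groups as well. The shares of all tested genes given above for each comparison are the background for the counts below. The 5 primary granule genes of promyelocytes, which still divide, summed to 9735 to 9948 CPM in WT_EV, 10134 to 10348 CPM in dKO_EV, 12812 to 13353 CPM in dKO_MUT and 15402 to 15409 CPM in dKO_PRMT1. All 5 rose with either form over dKO_EV. The 13 secondary granule and late neutrophil genes summed to 8650 to 8862 CPM in WT_EV, 15661 to 16521 CPM in dKO_EV, 20548 to 20676 CPM in dKO_MUT and 17674 to 18015 CPM in dKO_PRMT1. Of these, 12 rose and 1 fell in dKO_EV against WT_EV, and 0 rose and 10 fell in dKO_PRMT1 against dKO_MUT. Against dKO_EV the list split with active PRMT1: 6 rose and 4 fell, with differences from -1.71 to 0.53. With the dead form 9 rose and 0 fell. The 14 monocyte, macrophage and dendritic genes summed to 6344 to 6399 CPM in WT_EV and 5770.5 to 6175 CPM in dKO_EV. They summed to 4226 to 4236 CPM in dKO_MUT and 4599 to 4699 CPM in dKO_PRMT1. Of these 14, 3 were higher and 5 lower in dKO_EV against WT_EV. Against dKO_EV, 3 rose and 8 fell with active PRMT1, and 0 rose and 10 fell with the dead form. In dKO_PRMT1 against dKO_MUT, 7 were higher and 0 lower. The 12 stem and progenitor genes include Hoxa9, 1 of the 2 genes missing in the double knockout, so its low value there is part of the design. With Hoxa9 counted, 3 of the 12 rose and 4 fell in dKO_EV against WT_EV. In dKO_PRMT1 against dKO_EV, 2 rose and 9 fell. Mast cell, basophil and eosinophil genes summed to 1479 to 1500.2 CPM in WT_EV, 974 to 989 CPM in dKO_EV, 997 to 1039 CPM in dKO_MUT and 745 to 770.5 CPM in dKO_PRMT1. Megakaryocyte and platelet genes summed to 965 to 970.3 CPM in WT_EV, 893 to 914 CPM in dKO_EV, 569.9 to 577 CPM in dKO_MUT and 609.7 to 635 CPM in dKO_PRMT1. Both sums thus stood highest in WT_EV, and the second was lower in both groups with a PRMT1 vector. Of the 8 genes in the first sum, 1 rose and 4 fell in dKO_EV against WT_EV. Against dKO_EV, 4 of them rose and 2 fell with the dead form, and 1 rose and 5 fell with active PRMT1. Thbs1 alone made up 662 to 674 CPM of the second sum in WT_EV and 549 to 553 CPM in dKO_EV. Of the 8 megakaryocyte and platelet genes, 2 rose and 1 fell in dKO_EV against WT_EV, with a median difference of 0.25. Erythroid genes summed to 404 to 413 CPM in WT_EV, 299 to 309 CPM in dKO_EV, 298 to 303 CPM in dKO_MUT and 345 to 359 CPM in dKO_PRMT1. Most of this sum was Tfrc, at 343 and 350 CPM in WT_EV and 267 and 275 in dKO_EV. It was at 272 and 280 CPM in dKO_MUT and 330 and 341 in dKO_PRMT1. Of the 6 tested genes of the list, 1 rose and 3 fell in dKO_PRMT1 against dKO_EV, with a median difference of -1.06. T and NK cell genes summed to 95.2 to 98.4 CPM in WT_EV, 76.8 to 80.5 CPM in dKO_EV, 88.2 to 93.1 CPM in dKO_MUT and 113 to 115 CPM in dKO_PRMT1. Nearly all of this was Nkg7, at 93.9 and 97.2 CPM in WT_EV and 75.7 and 79.9 in dKO_EV. It was at 87.7 and 92.8 CPM in dKO_MUT and 112 and 114 in dKO_PRMT1. Only 2 of the 8 listed genes passed the filter on low counts. B-cell genes summed to at most 12.9 CPM, and Hbb-bs, Hba-a1 and Cd3e had 0 counts in all 8 libraries. The part of these shifts in cell types in the values of the 43 genes was not tested.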

How the data were processed

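Per the labels' protocols, the 8 mouse HSPC libraries (4 groups of 2) were prepared with a strand-marking NEB kit, Ultra II Directional, from total RNA purified on RNeasy Plus Micro columns. The submitters' processing notes name Trim Galore 0.6.6, STAR 2.7.6a, featureCounts and the build GRCm38/mm10. For the counting, neither strand setting nor annotation release is given in the sources used here. In the deposited table, the authors gave raw counts per gene with each gene model's length in the same table. Groups came from the titles.

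Counts were tested in R 4.3.3 with edgeR 4.0.16 (filterByExpr, TMM scaling, robust quasi-likelihood fit, groups only, all 8 libraries), leaving 12744 of 24421 genes and 4 residual degrees of freedom. P-values were adjusted by Benjamini-Hochberg over all 12744 genes, with a call at 0.05, and the script was checked on simulated data. CPM is counts per 1000000 of the library size, which was summed over the tested genes and scaled by the TMM factor. CPM per kilobase divides this by the deposited length. Libraries of 15531344 to 22329749 counts gave the 43 genes standard errors of 0.04 to 0.16 (log2). Replicates differed beyond counting noise in every group (chi-square per degree of freedom 3.65 to 6.43), so none was a duplicate. Centred values in the heat map are log2(CPM + 0.5).

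The genes and lists were chosen with earlier results of these data known. Named are genes called in at least 1 comparison, the highest and lowest level in each role, Pcna, Gmnn, Cdt1, Cdc6 and Orc1, and at most 4 called genes per neighbouring list and comparison. Some other genes of the set whose libraries did not overlap are also named with values, chosen after their values were seen. Not every such gene is given with a value, Gins2 and Rfc4 in dKO_EV against WT_EV among them. Alternatives were DESeq2 (1.42.0) and its size factors, no filter on low counts, the replicate number as a block, and each library left out in turn. No protein sequences were used.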

Additional observations from a re-analysis of the deposited data

How the results depend on the processing

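The 23 calls of single genes were refitted under 12 alternatives. Of these, 3 stayed past the threshold in all 12 (Orc5 in dKO_EV against WT_EV, Dna2 and Pcna in dKO_PRMT1 against WT_EV), and 0 reversed. With DESeq2, 1 gene was lower in dKO_PRMT1 than in WT_EV in place of 2, and with no filter on low counts 2 were lower in dKO_MUT than in WT_EV in place of 1 and 6 in dKO_EV than in WT_EV in place of 5 (Orc2 and Gins2 gained, Lig1 lost). With each library left out in turn, the number of the 43 genes called in dKO_EV against WT_EV ran from 0 to 1 higher and from 1 to 5 lower. It ran from 2 to 6 higher in dKO_PRMT1 and from 0 to 3 higher in dKO_MUT against dKO_EV, and from 0 to 1 higher in dKO_PRMT1 against dKO_MUT. Against WT_EV it ran from 1 to 5 higher and 1 to 2 lower in dKO_PRMT1, and from 0 to 2 higher and 0 to 3 lower in dKO_MUT. Where a group was left with 1 library, that library was assumed to vary like the other groups. Scaling by DESeq2 size factors changed none of the 23 calls. Leaving out 1 library also gave calls that all 8 libraries did not, of Orc2, Gins2, Cdc6 or Tipin in dKO_EV against WT_EV, of Pola2, Wdhd1, Cdc6 or Gmnn in dKO_PRMT1 and Cdc6 or Tipin in dKO_MUT against dKO_EV, and of Orc2, Orc5, Orc6, Gins1 or Cdc7 in dKO_MUT against WT_EV. The neighbouring lists were not refitted.

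The replicate numbers are shared across groups, but deviations of same-numbered libraries correlated at -0.04 to 0.02 over 9945 genes, so they were not shown to pair the libraries. With the replicate block, 5, 5, 2, 1, 7 and 2 of the 43 genes were called in the order of the comparisons in the report, against 6, 5, 2, 1, 7 and 2 without it, and the call of Lig1 was the 1 lost (adjusted p = 0.0554). With 2 libraries a group, standard errors of 0.04 to 0.16 limit what can be called for these genes.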
